A study of Mus musculus with 32 samples.

Results

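The SREBP2 cholesterol synthesis and uptake genes are followed here in mouse kidney cortex as 26 genes chosen by their symbols from the 32544 genes of a count table: enzymes that build cholesterol, the SREBP2 machinery that controls them, and 2 genes of sterol transport and uptake. All 26 had counts in every mouse and passed the low-count filter of every comparison. The mice carried the Col4a3tm1Dec allele on the C57BL/6J background and were 25 weeks old. Control mice were heterozygous (Col4a3+/-) and Alport mice homozygous (Col4a3-/-), so that no group was free of the mutant allele. Both sexes and both genotypes were given vehicle, which was a purified diet, or the same diet with nicotinamide riboside (NR), a precursor of NAD+. The 32 mice fell into 8 groups of 4, and each mouse was 1 library of poly(A) RNA. Alport mice lack the α3 chain of type IV collagen, a part of the glomerular basement membrane, and develop progressive kidney disease.

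Cholesterol is made from acetyl-CoA through mevalonate, the isoprenoids, squalene and lanosterol, and a series of ring and side-chain changes then turns lanosterol into cholesterol. SREBP2, the product of Srebf2, is held in the endoplasmic reticulum with its escort Scap by the sterol-binding proteins Insig1 and Insig2. When sterol falls, SREBP2 is carried to the Golgi, cut, and enters the nucleus, where it raises most enzymes of the pathway, Insig1 and Srebf2 itself. SREBP2 is known to bind sterol regulatory elements in promoters together with NF-Y, which binds CCAAT boxes. The proximal tubule makes up much of the kidney cortex, and its cells, like others, both make cholesterol and take it up from lipoproteins.

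Promoter sequence was looked up in RefSeq (build GRCm38.p6, 250 bases before to 50 after each start site), which held promoters for 22 of the 26 genes, 28 in all, and none in the table used for Fdps, Fdft1, Sqle and Stard4. A CCAAT box (CCAAT on either strand) was found in the promoters of 20 of the 22 genes, in 20 of the 28 promoters, and in 37.4% of all 32851 promoters of that length. The sterol regulatory element TCACCCCAC, searched on both strands, was found exactly in 1 gene, Hmgcs1, starting at position −137 before the start site, and in 0.551% of all promoters. With at most 1 mismatch it was found in 6 genes (Acat2, Hmgcs1, Nsdhl, Hsd17b7, Srebf2 and Mylip), in 6 of the 28 promoters and in 9.82% of all promoters. Of these 6 genes, 5 also had a CCAAT box in that promoter, where 20 of the 22 genes had one in any promoter. The GC box GGGCGG was found in 20 genes, in 23 of the 28 promoters and in 35.7% of all promoters. For the E-box CACGTG it was 5 genes, 6 of the 28 promoters and 7.15% of all promoters.

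The promoters of 5 genes are shown as the 250 bases before the start site on the gene's strand: Hmgcs1 for its exact element, Srebf2 as the gene of the factor itself, Insig1 and Msmo1 for their response to NR, and Idi1 for its response to genotype. Capitals mark matches of TCACCCCAC with at most 1 mismatch and CCAAT boxes, which read ATTGG where they lie on the other strand.
Hmgcs1: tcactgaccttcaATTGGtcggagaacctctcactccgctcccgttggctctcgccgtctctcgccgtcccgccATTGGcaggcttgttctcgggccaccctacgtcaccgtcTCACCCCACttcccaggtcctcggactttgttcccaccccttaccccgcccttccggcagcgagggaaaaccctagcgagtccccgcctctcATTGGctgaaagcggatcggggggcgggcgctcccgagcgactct
Srebf2: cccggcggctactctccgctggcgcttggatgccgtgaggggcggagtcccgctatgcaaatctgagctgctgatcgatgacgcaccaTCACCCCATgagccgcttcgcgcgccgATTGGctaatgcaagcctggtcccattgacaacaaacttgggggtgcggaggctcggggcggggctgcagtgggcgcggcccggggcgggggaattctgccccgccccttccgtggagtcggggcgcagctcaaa
Insig1: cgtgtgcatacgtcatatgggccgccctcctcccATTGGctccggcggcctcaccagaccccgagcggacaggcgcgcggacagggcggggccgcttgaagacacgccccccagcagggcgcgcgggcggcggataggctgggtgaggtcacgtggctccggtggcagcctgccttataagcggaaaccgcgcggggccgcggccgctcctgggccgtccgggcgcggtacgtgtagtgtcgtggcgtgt
Idi1: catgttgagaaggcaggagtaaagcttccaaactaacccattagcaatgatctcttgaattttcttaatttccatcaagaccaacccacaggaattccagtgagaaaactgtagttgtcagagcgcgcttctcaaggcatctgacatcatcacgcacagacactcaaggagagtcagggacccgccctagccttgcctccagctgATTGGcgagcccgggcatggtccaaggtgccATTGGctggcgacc
Msmo1: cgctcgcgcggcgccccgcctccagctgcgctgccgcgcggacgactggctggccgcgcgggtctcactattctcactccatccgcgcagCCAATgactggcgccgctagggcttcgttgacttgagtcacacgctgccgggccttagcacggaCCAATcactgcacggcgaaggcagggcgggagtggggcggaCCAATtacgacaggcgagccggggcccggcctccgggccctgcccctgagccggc
The windows lie at chr13:119690101-119690350 (plus strand), chr15:82147019-82147268 (plus strand), chr5:28071162-28071411 (plus strand), chr13:8885356-8885605 (plus strand) and chr8:64733579-64733828 (minus strand), in that order. They hold 3 CCAAT boxes in Hmgcs1, 1 in Srebf2, 1 in Insig1, 2 in Idi1 and 3 in Msmo1. The element of Srebf2 starts at −162, and the windows of Insig1, Idi1 and Msmo1 hold no match within 1 mismatch. A match is a run of letters and was not tested for binding, and no match says only that these letters are not in the window.

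Total counts were 16621944 to 27778797 per mouse, and the 26 genes took 0.127% to 0.284% of them. Levels are given as CPM, the count of a gene scaled to the size of its library, after TMM scaling of the 32 mice, and log2 fold changes with their standard error (SE) come from edgeR's quasi-likelihood F test on the 8 mice of a comparison, where "called" means a Benjamini-Hochberg adjusted p under 0.05 over all genes tested. CPM do not allow for gene length, so levels are compared between mice and not between genes. The fold changes use TMM factors of the mice compared only, so they can differ from the ratio of the printed CPM. For vehicle-treated Alport against control males, the median log2 fold change of the 26 genes was −0.37 on this scaling. It was −0.45 in 1 fit of all 32 mice. Whether groups overlap was read from CPM and can therefore part from the calls. Markers of the proximal tubule were high in all groups (a summed level of 5602 to 30693 CPM over 12 genes), whereas 5 adipocyte markers summed to 0.345 to 5.95 CPM and 7 adrenal cortex markers to 3.06 to 7.56 CPM. Col4a3 read 59.3 to 201 CPM in the 16 control mice and 48.8 to 83.2 CPM in the 16 Alport mice. It was lower in vehicle-treated Alport than control mice of both sexes (log2 fold changes −1.40 and −1.19, adjusted p = 7.25e-06 and 3.57e-05). The NR-treated female controls read 113, 105, 124 and 122 CPM, below all vehicle-treated female controls (139.5 to 163.5 CPM). The NR-treated male controls read 59.3, 94.1, 75.2 and 159.6 CPM. Of these, mice 1, 2 and 3 lay below all vehicle-treated male controls (150.6 to 200.6 CPM), and mice 1 and 3 within the range of the Alport mice. These are counts over the whole gene, in which the altered part was not looked at separately, so that they are an incomplete check of genotype. The comparison of NR with vehicle in male controls and the interactions that use it are also given without male mice 1 and 3.

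The mean log2 CPM of the 26 genes gives an outline (plot of the mean per mouse). In males it was 5.53 ± 0.0773 (SD, n = 4) in vehicle-treated controls, 5.97 ± 0.138 (SD, n = 4) in NR-treated controls, 5.02 ± 0.0804 (SD, n = 4) in vehicle-treated Alport mice and 5.66 ± 0.434 (SD, n = 4) in NR-treated Alport mice. The corresponding means in females were 5.35 ± 0.0602 (SD, n = 4), 5.84 ± 0.0974 (SD, n = 4), 4.93 ± 0.113 (SD, n = 4) and 5.62 ± 0.338 (SD, n = 4). In both sexes the NR-treated controls lay above all vehicle-treated controls, and the vehicle-treated Alport mice below them. The NR-treated Alport mice were the most spread group, with 5.09, 5.72, 6.14 and 5.69 in males and 5.30, 5.36, 5.97 and 5.85 in females.

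**Figure D1:**
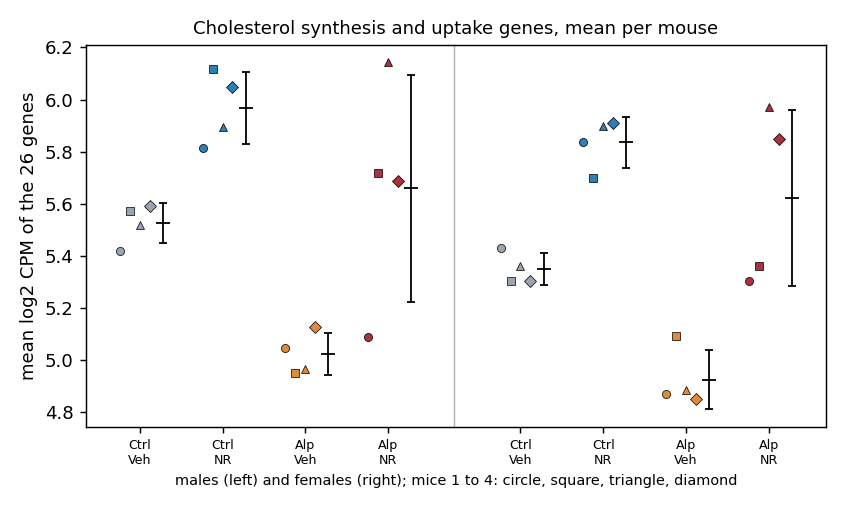
Mean log2 CPM of the 26 genes in each mouse (y axis) for the 8 groups (x axis), with males on the left and females on the right; Ctrl is control, Alp is Alport, Veh is vehicle, and crosses with bars are group mean and SD of 4 mice. NR-treated controls sit above vehicle-treated controls in both sexes, and NR-treated Alport mice spread from 5.09 to 6.14 in males.

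Within groups, the genes rose and fell together to different degrees. As a description over 32 mice, the deviation of a gene from its group mean had a Pearson correlation with the mean deviation of the other 25 genes of 0.92 for Idi1, 0.90 for Mvk, 0.87 for Sc5d, 0.86 for Insig1, 0.84 for Stard4 and 0.84 for Sqle. The values were lowest for Mylip (0.05), Ebp (0.09), Scap (0.22), Ggps1 (0.28) and Lbr (0.39). The genes of a mouse share its library and its scaling. The mean of the 26 genes spread most in NR-treated Alport mice (SD 0.434 in males, 0.338 in females, against 0.0602 to 0.138 elsewhere). These mice can therefore weigh most in the correlations, which were not computed without them.

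The comparison of vehicle-treated Alport with vehicle-treated control mice asks how these genes stand in Alport kidney disease. In males 16 of the 26 genes were lower, where 24.2% of the 15286 genes tested were called lower. None was higher, where 4093 of the 15286 genes were called higher. The female comparison had 16 lower and 1 higher, where 21.8% of 15709 genes were called lower and 24% higher. The median log2 fold change of the 26 genes was −0.37 in males and −0.33 in females, against −0.0013 and −0.00083 for all genes. The groups did not overlap, with all Alport mice below all controls, for 19 genes in males (28.5% of all genes) and 16 in females (23.7% of all genes). The same 14 genes were called lower in both sexes: Acat2, Hmgcs1, Mvd, Idi1, Lss, Cyp51, Tm7sf2, Nsdhl, Hsd17b7, Ebp, Sc5d, Insig1, Insig2 and Stard4. That is 87.5% of the genes called lower in each sex, and the matching share over all genes was not computed.

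Of the 8 mevalonate and isoprenoid genes, 4 fell in males and 5 in females. Hmgcs1, which makes HMG-CoA, read 580.0, 693, 588 and 713 CPM in vehicle-treated male controls and 343, 329.8, 280.2 and 466 CPM in vehicle-treated male Alport mice. The females read 319, 355, 357 and 365 CPM in controls and 228, 289, 252 and 226 CPM in Alport mice. All Alport mice were below all controls of their sex, with log2 fold changes of −0.77 ± 0.15, adjusted p = 0.000893 in males and −0.45 ± 0.10, adjusted p = 0.00311 in females. Idi1, the isomerase that readies isopentenyl diphosphate for chain building, fell the most of the 26 genes in males, from 79.3, 98.05, 78.4 and 132 CPM to 32.4, 39.4, 27.1 and 41.8 CPM. Female mice had levels of 39.3, 33.4, 36.4 and 33.4 CPM in controls and 20.7, 22.2, 18.6 and 19.7 CPM in Alport mice. The groups were again apart in both sexes, and the log2 fold changes were −1.38 ± 0.18, adjusted p = 6.23e-05 and −0.77 ± 0.08, adjusted p = 6.96e-05. Acat2, the cytosolic thiolase that joins acetyl-CoA units, fell by 0.73 in males and by 0.67 in females on the log2 scale, and Mvd, which decarboxylates mevalonate diphosphate, by 0.61 and 0.38. Pmvk, phosphomevalonate kinase, was called in females (−0.27 ± 0.09, adjusted p = 0.0314) and not in males (0.08 ± 0.16, adjusted p = 0.719). Its control level was higher in females than in males. Mvk, mevalonate kinase, and Ggps1, which makes geranylgeranyl diphosphate, were not called in either sex.

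Fdps, the synthase of farnesyl diphosphate, did not share this fall. It read 11.8, 14.7, 14.1 and 15.4 CPM in vehicle-treated male controls and 15.03, 14.9, 14.2 and 14.9 CPM in vehicle-treated male Alport mice. In females it read 20.2, 16.9, 18.8 and 17.1 CPM in controls and 16.9, 16.8, 16.2 and 16.6 CPM in Alport mice. The groups overlapped in males. In females they were apart by a very small margin, 16.92 CPM in the highest Alport mouse and 16.93 CPM in the lowest control. Its log2 fold changes were 0.16 ± 0.10, adjusted p = 0.211 in males and −0.10 ± 0.08, adjusted p = 0.364 in females.

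The 3 squalene and lanosterol genes differed from each other. Sqle, squalene epoxidase, read 60.4, 59.97, 77.5 and 72.5 CPM in male controls and 61.9, 63.8, 62.6 and 72.3 CPM in male Alport mice on vehicle. The females read 44.6, 35.9, 41.2 and 35.1 CPM in controls and 48.5, 47.5, 56.8 and 40.6 CPM in Alport mice, with 1 Alport mouse inside the control range. It was the one gene of the 26 called higher in Alport mice, by 0.34 ± 0.11, adjusted p = 0.0253 in females, and its male value was 0.03 ± 0.10, adjusted p = 0.806. The female call was lost without vehicle-treated control 2 or 4, without vehicle-treated Alport mouse 3 and in the fit of all 32 mice. Lss, lanosterol synthase, fell from 28.8, 33.8, 30.8 and 30.8 CPM to 23.5, 22.6, 23.6 and 23.5 CPM in males. It fell from 38.5, 36.5, 31.6 and 37.8 CPM to 20.9, 23.8, 24.2 and 25.1 CPM in females, without overlap in either sex (−0.33 ± 0.07, adjusted p = 0.0029 and −0.58 ± 0.08, adjusted p = 0.000328). Fdft1, squalene synthase, was not called in either sex (−0.18 ± 0.09, adjusted p = 0.0944 and −0.22 ± 0.10, adjusted p = 0.0802).

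Of the 9 genes of the later sterol steps, 7 fell in males and 6 in females. Cyp51, the lanosterol demethylase, read 150.2, 111, 232 and 215 CPM in vehicle-treated male controls and 71.5, 56.3, 66.2 and 73.03 CPM in male Alport mice. Female mice had levels of 279, 185, 212 and 180.0 CPM in controls and 94.9, 195, 107 and 76.5 CPM in Alport mice, where Alport mouse 2 lay within the control range. The male groups did not overlap. Cyp51 fell by 1.32 on the log2 scale in males and by 0.81 in females, with a control spread of more than 2-fold in males. Tm7sf2 (C14 sterol reductase), Nsdhl, Hsd17b7 (both of C4 demethylation), Ebp (sterol isomerase) and Sc5d (sterol C5 desaturase) fell in both sexes, by 0.41 to 0.85 on the log2 scale. Lbr, the nuclear envelope protein that also reduces C14 sterols, was called lower in males and not in females (−0.54 ± 0.13, adjusted p = 0.0038 in males, −0.11 ± 0.10, adjusted p = 0.369 in females). The last enzyme, Dhcr7, read 16, 19.5, 14.2 and 16.2 CPM in male controls and 14.3, 11.5, 15.8 and 15.1 CPM in male Alport mice. In females it read 16.2, 13.97, 17.02 and 13.3 CPM in controls and 13.4, 13.6, 13.4 and 15.03 CPM in Alport mice, and the groups overlapped in both sexes with no call. Msmo1, the C4 methyl oxidase, read 12.9, 17.6, 18.1 and 18.5 CPM in male controls and 16.5, 14.6, 17.9 and 17.03 CPM in male Alport mice, and was also not called in either sex.

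Among the 4 regulators, Srebf2 itself had small differences. It read 102, 107, 102 and 103 CPM in vehicle-treated male controls and 89.7, 89.9, 89.6 and 92.4 CPM in vehicle-treated male Alport mice. The females read 117, 118, 121 and 117 CPM in controls and 98.02, 102, 99.5 and 90.6 CPM in Alport mice, and although the groups were apart in both sexes, only the female change was called (−0.24 ± 0.06, adjusted p = 0.00734, against −0.11 ± 0.06, adjusted p = 0.16 in males). Insig1 read 40.8, 49.6, 54.7 and 36.5 CPM in vehicle-treated male controls and 25.6, 20.4, 28.7 and 27.8 CPM in vehicle-treated male Alport mice. Female mice had levels of 38.6, 35.7, 41.6 and 51.4 CPM in controls and 16.1, 24.7, 17.96 and 19.4 CPM in Alport mice. It fell without overlap in both sexes, by 0.74 and 1.06 on the log2 scale. Insig2 read 47.6, 51.5, 51.3 and 49.8 CPM in control and 37.9, 36.1, 35.4 and 43.1 CPM in Alport males, and 54.7, 51.2, 38.9 and 44.8 CPM in control and 35.03, 41.8, 37.2 and 37.3 CPM in Alport females. Its groups were apart in males and overlapped in females, its fall was smaller (−0.31 ± 0.08, adjusted p = 0.0062 and −0.29 ± 0.10, adjusted p = 0.0398), and that of Scap was called in males (−0.24 ± 0.07, adjusted p = 0.017) and not in females (−0.19 ± 0.07, adjusted p = 0.0557).

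Of the transport and uptake pair, Stard4, a carrier of cholesterol between membranes, read 90.8, 109, 109 and 120.0 CPM in male controls and 71.2, 59.3, 68.6 and 55.1 CPM in male Alport mice. In females it read 111, 104, 126 and 109 CPM in controls and 56.9, 71.5, 68.6 and 64.98 CPM in Alport mice, a fall without overlap in both sexes (−0.67 ± 0.11, adjusted p = 0.000272 and −0.74 ± 0.09, adjusted p = 0.00016). Mylip, a ubiquitin ligase of lipoprotein receptors that answers to LXR rather than SREBP2, read 64.2, 95.4, 59.3 and 67.1 CPM in control and 71.5, 67.2, 64.7 and 58.7 CPM in Alport males, and 69.7, 59.7, 78.1 and 67.4 CPM in control and 82.9, 97.6, 68.7 and 72.5 CPM in Alport females. It was not called in either sex and was the only one of the regulators and transport genes with a positive value in females (0.26 ± 0.12, adjusted p = 0.0953).

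These falls stood beside changes in cell type markers. All 12 proximal tubule markers were called lower in Alport mice of both sexes, with median log2 fold changes of −1.09 and −0.96, and their summed level was 26118 to 29444 CPM in male controls and 9443 to 16043 CPM in male Alport mice. All 10 fibroblast and matrix and all 5 injured tubule markers were called higher in both sexes, and 10 of 10 immune markers in males and 9 in females, as were 5 and 4 of 5 podocyte and 4 and 3 of 5 endothelial markers. In RNA from whole cortex, fewer cells of a type and less RNA per cell cannot be told apart, and the part of the tubule markers' fall in the values above was not tested. Without each mouse in turn, the number of genes called was 16 in males throughout and 13 to 20 in females.

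**Figure D2:**
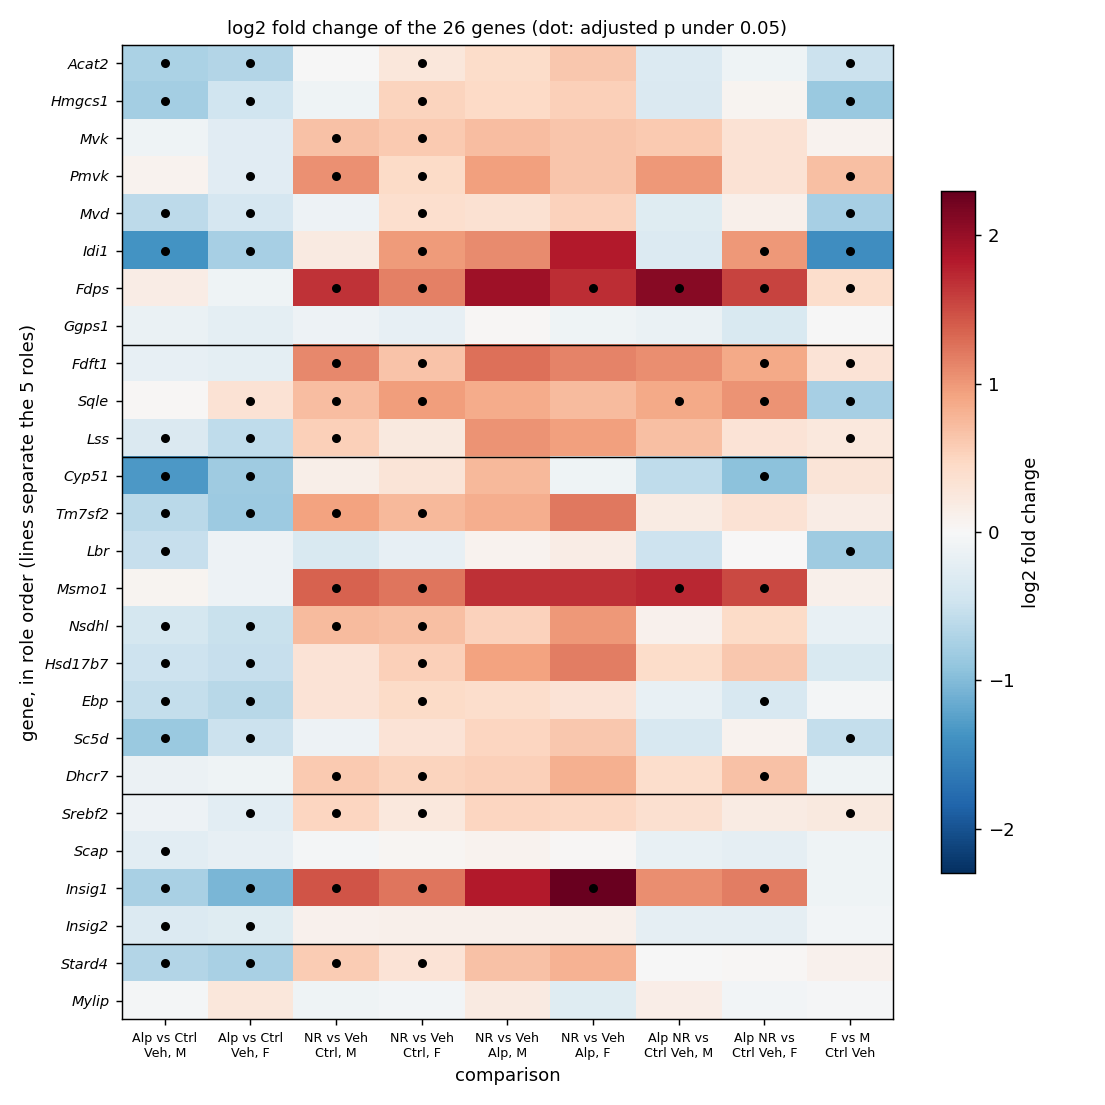
log2 fold change (colour) of each of the 26 genes (rows, in role order with lines between the 5 roles) in 9 comparisons (columns; Alp is Alport, Ctrl control, Veh vehicle, M male, F female); a dot marks an adjusted p under 0.05. Idi1 and Cyp51 have the deepest blue in male Alport mice, and Fdps, Msmo1 and Insig1 are above 1 in all 4 comparisons of NR with vehicle.

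NR was also compared with vehicle in control mice, which were Col4a3+/-. Among them, NR-treated males 1 and 3 had Col4a3 levels within the range of the Alport mice. NR raised 13 of the 26 genes in males, where 3.07% of 14696 genes tested were called higher, and 18 in females, where 3.91% of 14951 were. None was called lower, where 215 of all genes tested in males and 340 in females were. The median log2 fold change was 0.40 in males and 0.44 in females, against −0.00022 and −0.0091 for all genes. The groups were apart, with all NR-treated mice above all vehicle-treated mice, for 13 genes in males (7.35% of all genes) and 17 in females (8.53%). Both sexes shared 12 calls: Mvk, Pmvk, Fdps, Fdft1, Sqle, Tm7sf2, Msmo1, Nsdhl, Dhcr7, Srebf2, Insig1 and Stard4. That is 92.3% of the male and 66.7% of the female calls, and the matching share over all genes was not computed.

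Fdps and Msmo1 rose the most among the enzymes. Fdps read 49.02, 45.9, 50.05 and 31.01 CPM in NR-treated male controls and 35.2, 34.2, 52.4 and 42.3 CPM in NR-treated female controls, without overlap with vehicle in either sex. That was a log2 fold change of 1.66 ± 0.16, adjusted p = 0.00116 in males and 1.16 ± 0.13, adjusted p = 0.00124 in females. Msmo1 read 38.2, 43.1, 45.4 and 45.5 CPM in NR-treated male controls and 42.8, 30.3, 52.7 and 42.5 CPM in the females, also without overlap with vehicle (1.37 ± 0.12, adjusted p = 0.000745 and 1.23 ± 0.16, adjusted p = 0.00245). All 3 squalene and lanosterol genes rose in males: Fdft1 by 1.11, Sqle by 0.71 and Lss by 0.54 on the log2 scale. Sqle read 104, 133, 95.1 and 107 CPM in NR-treated male controls and 81.5, 60.95, 81.1 and 82.5 CPM in NR-treated female controls, and was called in both sexes (0.96 ± 0.11, adjusted p = 0.00124 in females). Lss read 40.3, 45.3, 44.2 and 50.01 CPM in NR-treated male controls and 40.2, 40.3, 44.1 and 44.6 CPM in the females, where the groups were apart but not called (0.22 ± 0.07, adjusted p = 0.103).

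Several early and late enzymes were called higher in females and not in males. Hmgcs1 read 441, 623, 619.8 and 712 CPM in NR-treated male controls, overlapping with vehicle (−0.10 ± 0.14, adjusted p = 0.715). It read 506, 414, 574 and 514 CPM in NR-treated female controls, above all 4 on vehicle (0.52 ± 0.10, adjusted p = 0.0122). Idi1 likewise read 86.7, 138, 97.6 and 121 CPM in males (0.20 ± 0.19, adjusted p = 0.561) and 64.3, 49.9, 88.99 and 79.9 CPM in females (0.98 ± 0.15, adjusted p = 0.00355). Acat2, Mvd, Hsd17b7 and Ebp were also called in females and not in males. The sex difference of the NR response was tested itself and was called for none of the 26 genes (smallest adjusted p = 0.111, Hmgcs1, with a female minus male log2 difference of 0.63 ± 0.18), where 0.683% of 15379 genes were called. At an unadjusted p under 0.05 it was 9 of 26, where 16% of all genes were, DESeq2 called 1 and limma-voom 0, and without NR-treated male control 4 edgeR called 3.

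Cyp51 was not called in either sex. It read 99.4, 284, 111 and 287 CPM in NR-treated male controls. Mice 1 and 3, the pair with Col4a3 in the Alport range, lay at or below the lowest vehicle-treated mouse, and mice 2 and 4 above the highest. In NR-treated female controls it read 271, 234, 278 and 274 CPM, overlapping with vehicle (0.30 ± 0.12, adjusted p = 0.168). Dhcr7 read 23.9, 25.8, 26.9 and 23.2 CPM in NR-treated male controls and 19.2, 18, 23.6 and 25.7 CPM in the females, above vehicle without overlap in each sex (0.61 ± 0.11, adjusted p = 0.0213 and 0.51 ± 0.13, adjusted p = 0.0369). Pmvk, which was not lower in male Alport mice, read 7.71, 7.09, 8.73 and 6.42 CPM on vehicle and 17.4, 14.8, 17.5 and 11.9 CPM on NR in male controls (1.05 ± 0.16, adjusted p = 0.0102). Ggps1, Lbr and Mylip were the genes with a negative log2 fold change in both sexes of controls, none of them called. Ggps1 read 19.1, 18.9, 16.6 and 22.9 CPM on NR and 19.6, 21.2, 20.4 and 23.3 CPM on vehicle in males. Lbr read 27.7, 43.3, 30.8 and 43.9 CPM on NR and 43.3, 48.2, 38.4 and 56.4 CPM on vehicle in males.

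The regulators split. Insig1, a direct SREBP2 target, read 118, 154, 99.9 and 119 CPM in NR-treated male controls and 101, 75.5, 115 and 104 CPM in NR-treated female controls, without overlap with vehicle. Its log2 fold changes were 1.44 ± 0.15, adjusted p = 0.00195 and 1.23 ± 0.13, adjusted p = 0.00124. Insig2 read 55.9, 50.9, 49.7 and 56.9 CPM in males and 54.7, 52.1, 47.6 and 52.7 CPM in females on NR, and was not called in either sex (0.10 ± 0.07, adjusted p = 0.425 and 0.12 ± 0.09, adjusted p = 0.479). Srebf2 read 153, 145, 144 and 135 CPM in males and 141, 140.2, 133 and 151 CPM in females, above vehicle without overlap, by 0.49 ± 0.07, adjusted p = 0.0102 and 0.25 ± 0.06, adjusted p = 0.0287 on the log2 scale. Scap was not called in either sex. Stard4 read 146, 176, 149.7 and 168 CPM in males and 137, 126, 151 and 150.5 CPM in females on NR, and was called in both (0.59 ± 0.10, adjusted p = 0.016 and 0.32 ± 0.08, adjusted p = 0.039). Mylip read 67.8, 58.03, 69.1 and 69.2 CPM in males and 74.8, 62.04, 59.9 and 66.7 CPM in females, with no call.

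In the male controls, markers moved with NR as well: 5 of 5 endothelial, 4 of 10 fibroblast and matrix, 3 of 5 injured tubule and 2 of the 9 immune markers tested were called higher and 1 of 12 proximal tubule markers lower. The summed injured tubule level was 21.0 to 65.2 CPM on NR and 10.3 to 15.6 CPM on vehicle, against 438 to 759 CPM in vehicle-treated male Alport mice, and their part in the result was not tested. The summed proximal tubule level was 17950 and 20240 CPM in NR-treated males 1 and 3, the pair with Col4a3 in the Alport range. Both were below all vehicle-treated male controls (26118 to 29444 CPM), and males 2 and 4 had 27170 and 30693 CPM. Female controls had 1 proximal tubule marker lower and no marker of these other lists called. Without NR-treated male mice 1 and 3, 96 of all genes tested were called in males in either direction, against 666 with all mice. Of the genes followed here, 9 were called, and the median log2 fold change of the whole set was 0.59. Of these 9, 8 were also called in females (Fdps, Fdft1, Sqle, Tm7sf2, Msmo1, Nsdhl, Insig1 and Stard4), and Mvk, Pmvk, Dhcr7 and Srebf2 were no longer called. Without these 2 mice the NR-sex interaction in controls and the NR-genotype interaction in males still had 0 calls, with medians of −0.13 and 0.13, against 0.0064 and 0.20 with all mice. Without vehicle-treated male control 1 the count for NR in male controls was 6, and 74 over all genes tested. A single fit of all 32 mice, in which the 8 groups share 1 estimate of the spread, called 12 genes in males and 1, Sqle, in females (log2 fold change 0.97, adjusted p = 0.0162). Over all genes tested, that fit called 947 in males and 18 in females, against 666 and 924 in the fits of 8 mice.

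NR in Alport mice gave mostly positive log2 fold changes with few calls and a wide spread between mice. In males all 26 genes had a positive log2 fold change, with a median of 0.61, and none was called, as was no gene of the 15500 tested (0%). The smallest adjusted p of the 26 was 0.706. At an unadjusted p under 0.05 it was 16 of the 26 genes, where 5.06% of all genes were, and 8 genes had all NR-treated mice above all vehicle-treated mice, where 1.97% of all genes had. In females 23 of the 26 genes were higher, with a median of 0.64, and 16 were apart (5.14% of all genes). The 2 genes called were Fdps and Insig1, where 0.388% of 15712 genes were called higher. Over all genes, 52.9% were higher in males and 50.1% in females, with medians of 0.014 and 0.00049. Many of the 26 genes vary together between mice, so their signs are not 26 separate results.

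The largest log2 fold change was that of Insig1 in females and of Fdps in males. In NR-treated male Alport mice Insig1 read 28.8, 79.9, 183 and 73.9 CPM, of which mouse 1 lay within 1 CPM of the highest on vehicle and mouse 3 was more than 6 times that level. The female values were 52.5, 81.4, 123 and 118 CPM, all above every vehicle-treated mouse, and the log2 fold changes were 1.82 ± 0.46, adjusted p = 0.706 in males and 2.27 ± 0.26, adjusted p = 0.00932 in females. Fdps read 29.6, 35.97, 134 and 28.6 CPM in NR-treated male Alport mice, mouse 3 standing far above the others, and 27.8, 37.8, 85.3 and 63.4 CPM in the females. All 8 were above every vehicle-treated Alport mouse of their sex (1.95 ± 0.49, adjusted p = 0.706 in males and 1.70 ± 0.30, adjusted p = 0.0463 in females). Msmo1 had values of the same size (1.68 ± 0.45, adjusted p = 0.799 and 1.68 ± 0.35, adjusted p = 0.0857), from 23, 34.7, 118 and 37.97 CPM in males and 24.2, 30.5, 79.96 and 67.8 CPM in females.

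**Figure D3:**
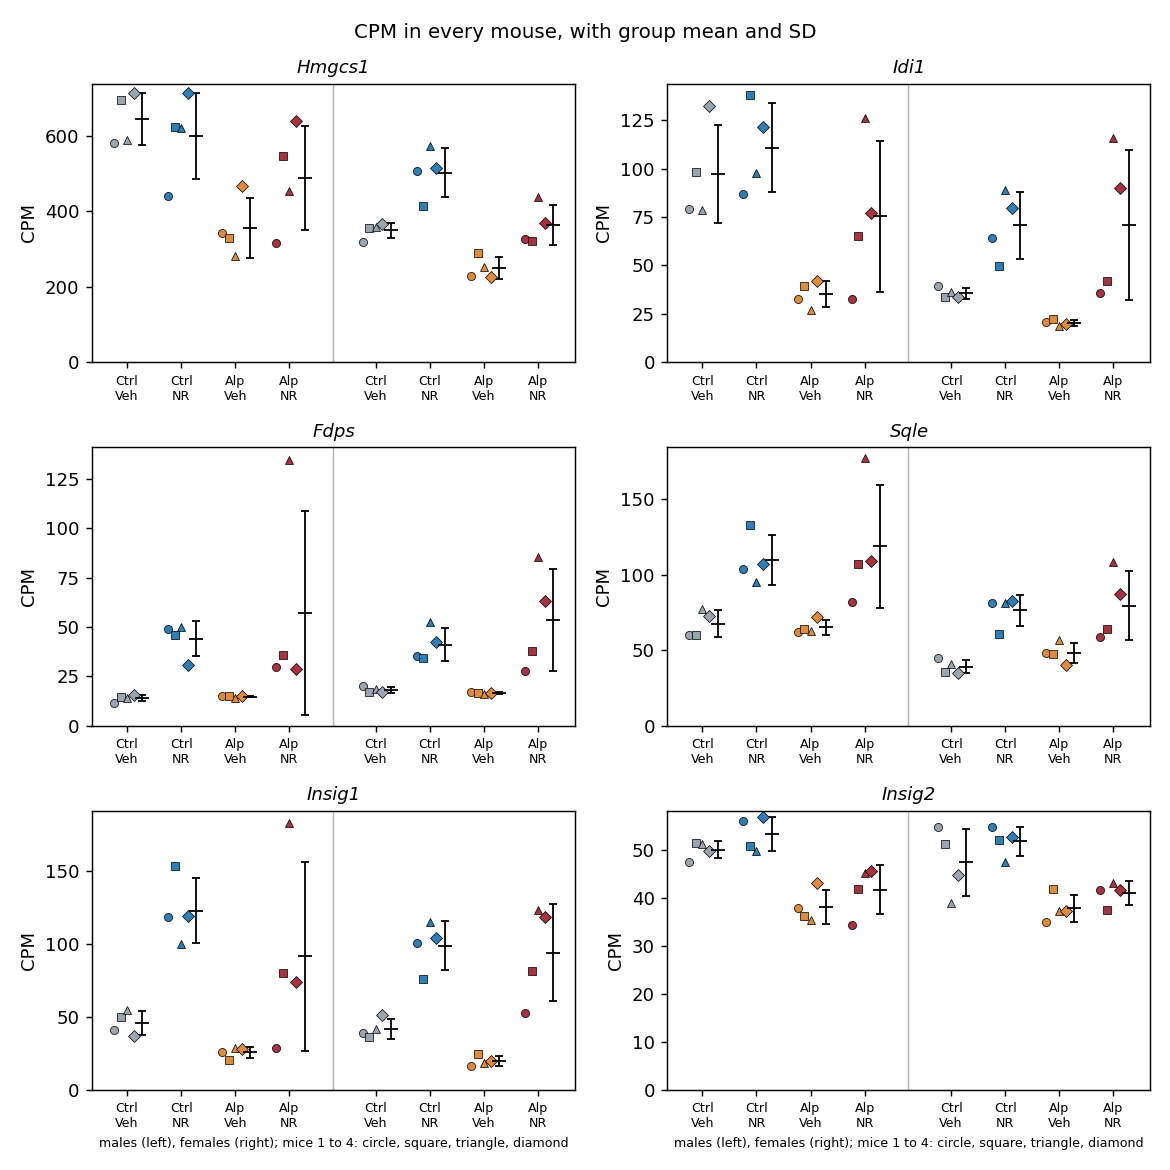
CPM (y axis, from 0) of 6 genes in each mouse of the 8 groups (x axis; males left, females right; Ctrl control, Alp Alport, Veh vehicle), with group mean and SD beside the 4 mice. On vehicle, Hmgcs1 and Idi1 are lower in Alport than control mice and lower in female than male controls, Fdps and Sqle are higher on NR in controls, Insig1 is lower in Alport mice on vehicle, and Insig2 stays within 34.4 to 56.9 CPM.

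Among the genes that were low in vehicle-treated Alport mice, some male mice on NR lay within the vehicle range. Hmgcs1 read 314, 546, 453 and 639 CPM in male Alport mice on NR and 327, 322, 438 and 368 CPM in the females (0.45 ± 0.25, adjusted p = 0.939 and 0.56 ± 0.13, adjusted p = 0.118). Idi1 read 32.5, 65.3, 126 and 77.2 CPM in males and 35.5, 42.1, 116 and 90.1 CPM in females (1.09 ± 0.35, adjusted p = 0.866 and 1.82 ± 0.34, adjusted p = 0.0599). Male mouse 1 lay within the vehicle range for both genes and male mouse 3 for Hmgcs1, whereas all 4 females were above it. Cyp51 read 55.7, 123, 129 and 145 CPM in males (0.75 ± 0.26, adjusted p = 0.905) and 114, 103, 127 and 98.1 CPM in females (−0.09 ± 0.25, adjusted p = 0.879), and its groups overlapped in both sexes. Lss read 31.1, 40.3, 86.2 and 35.6 CPM in males and 30.6, 34.2, 62.7 and 51.9 CPM in females, all above vehicle, and Stard4 read 68.6, 99.2, 127 and 116 CPM in males and 90.7, 81.8, 138 and 144 CPM in females. For Stard4, male mouse 1 lay inside the vehicle range and the other mice above it.

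Sqle read 81.9, 107, 177 and 109 CPM in male Alport mice on NR and 58.5, 63.9, 109 and 87.4 CPM in the females, above all vehicle-treated mice of their sex. Dhcr7 read 16.7, 18.5, 25.4 and 22.6 CPM in males and 15.97, 19.8, 36.3 and 24.4 CPM in females, again with no overlap with vehicle. Neither was called (0.86 ± 0.22, adjusted p = 0.706 and 0.55 ± 0.17, adjusted p = 0.855 in males). Srebf2 read 105, 118, 165 and 124 CPM in males and 109, 112, 159.6 and 158 CPM in females, all above vehicle (0.49 ± 0.14, adjusted p = 0.818 and 0.48 ± 0.14, adjusted p = 0.166). Insig2 read 34.4, 41.8, 45.1 and 45.5 CPM in males and 41.6, 37.4, 43.1 and 41.7 CPM in females, and Mylip 63.3, 88.04, 78.9 and 73.5 CPM and 76.4, 69.02, 62 and 55.7 CPM. Both overlapped with vehicle in both sexes, and the same held for Pmvk in males (8.98, 18.3, 21.9 and 8.19 CPM).

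Mice 1 and 3 lay at the ends of the male group. Mouse 3 had the highest level of Fdps, Fdft1, Sqle, Lss, Msmo1, Hsd17b7, Idi1 and Insig1 of the NR-treated male Alport mice together with the lowest summed proximal tubule markers of all 32 mice, 5602 CPM, but the lowest level of Ebp in its group, 31.4 CPM. Mouse 1 had the lowest mean of the 26 genes in its group and the highest summed immune and fibroblast and matrix levels of all 32 mice, 1747 and 2371 CPM, against 606 to 710.3 and 545 to 802 CPM in the other 3. Among the females, mice 3 and 4 had the higher mean and summed immune levels of 407 and 209 CPM, and mice 1 and 2 the lower mean and 1151 and 762 CPM (plot of the mean beside the markers). None of the 12 proximal tubule markers was called with NR in Alport mice of either sex, with medians of 0.07 and 0.04, and the part of these differences in the result was not tested.

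**Figure D4:**
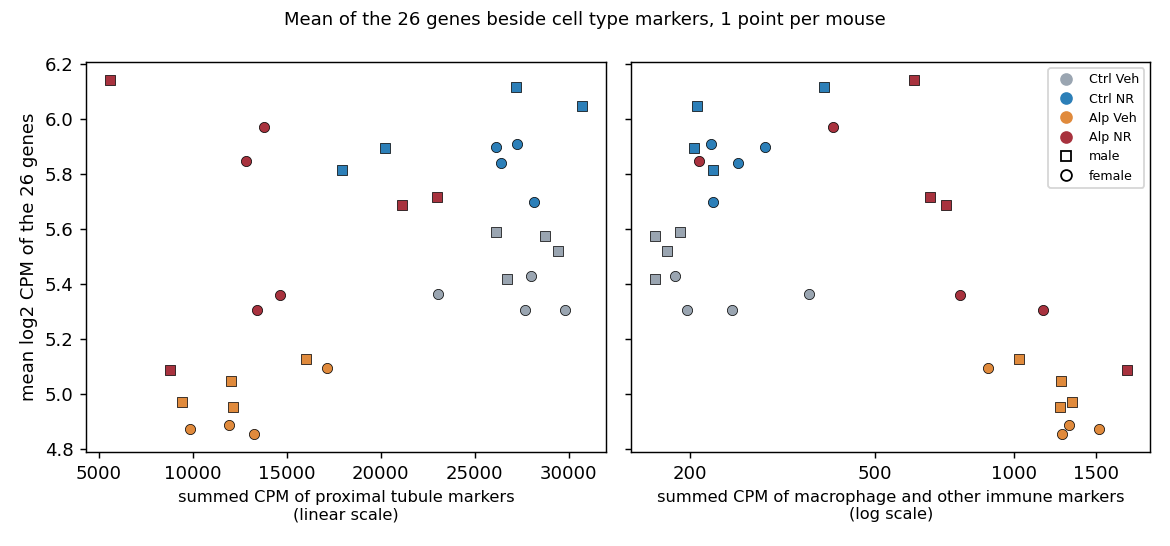
Mean log2 CPM of the 26 genes (y axis) against the summed CPM of 12 proximal tubule markers (left, linear x axis) and of 10 immune markers (right, log x axis), 1 point per mouse, coloured by genotype and treatment (Ctrl control, Alp Alport, Veh vehicle), squares male and circles female. The male NR-treated Alport mouse at 6.14 has the lowest proximal tubule sum, and the one at 5.09 the highest immune sum.

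The number of calls turned on these mice and on the fit. Without NR-treated male Alport mouse 1, 9 of the 26 genes were called in males, whereas leaving out any other male mouse left 0. In females the count ran from 0 (without vehicle-treated Alport mouse 1, 3 or 4) to 7 (without NR-treated Alport mouse 1). It was 5 without NR-treated mouse 2, and 1 without vehicle-treated Alport mouse 2 or without NR-treated mouse 3 or 4. DESeq2 called 3 genes in males and 17 in females, limma-voom 0 and 1, and the fit of all 32 mice 8 and 13, all of them higher. The number of all genes called moved as well, to 62 and 728 with DESeq2, 0 and 69 with limma-voom and 88 and 253 in the fit of all 32 mice, and was 380 in males without NR-treated mouse 1 and 166 in females without NR-treated mouse 1.

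Whether NR acts differently by genotype was tested as an interaction, which shares the 4 groups of a sex. None of the 26 genes was called in males, where 0 of 15800 genes were (0%), or in females, where 0 of 16064 were (0%). In data simulated on the female groups, this test called 49 of 98 genes changed 2-fold. The lack of calls therefore does not show that the 2 genotypes respond alike. At an unadjusted p under 0.05 it was 0 of 26 genes in males, where 8.85% of all genes were, and 4 of 26 in females, where 9.47% were. The log2 difference of Alport minus control response was 0.36 ± 0.51 for Insig1 and 0.26 ± 0.54 for Fdps in males. In females it was 1.02 ± 0.31 (unadjusted p = 0.00408, adjusted p = 0.399 in this test) for Insig1 and 0.52 ± 0.35 for Fdps. Within Alport mice the response of the sexes was called different for none of the 26 genes (0% of 16189 genes), and 2 had an unadjusted p under 0.05, where 2.24% of all genes had. DESeq2 and limma-voom called 0 of the 26 genes in each of these interactions.

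NR-treated Alport mice were also set against vehicle-treated controls. In males 3 of the 26 genes, Fdps, Sqle and Msmo1, were called higher, a smaller share than the 14.4% of 15077 genes tested. None was called lower, where 1026 of the 15077 genes were. The female comparison had 7 higher (Idi1, Fdps, Fdft1, Sqle, Msmo1, Dhcr7 and Insig1), where 11.9% of 15381 genes were. It had 2 lower, Cyp51 and Ebp, a smaller share than the 11.6% of all genes. Idi1 and Dhcr7 were close to the threshold in females (adjusted p = 0.0499 for each). The largest values were those of Fdps (2.09 ± 0.49, adjusted p = 0.0179 in males and 1.56 ± 0.30, adjusted p = 0.00505 in females) and Msmo1 (1.73 ± 0.46, adjusted p = 0.0271 and 1.51 ± 0.35, adjusted p = 0.0125). Cyp51 stayed below control in females by 0.95 on the log2 scale (adjusted p = 0.00191). Its male value was −0.59 ± 0.32, adjusted p = 0.207. Stard4 was close to the control level in both sexes (−0.01 ± 0.19, adjusted p = 0.987 and 0.03 ± 0.18, adjusted p = 0.933). The male count ran from 0, without vehicle-treated control 1, 2 or 4, through 1, without control 3, to 5, 6 and 7 without NR-treated Alport mouse 3, 4 or 1. The female count ran from 5, without vehicle-treated control 1, 2 or 3 or NR-treated Alport mouse 3, to 9. The fit of all 32 mice called 12 genes in males and 9 in females, and DESeq2 6 in males. Proximal tubule markers were called lower for 4 of 12 genes in males and 11 of 12 in females, and their part in these values was not tested.

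The baseline comparison of the sexes set vehicle-treated female against male controls. The median log2 fold change of the 26 genes was −0.05, with 7 called lower and 5 higher. Females were lower than males for Acat2, Hmgcs1, Mvd, Idi1, Sqle, Lbr and Sc5d, where 15.8% of 14990 genes were called lower, and higher for Pmvk, Fdps, Fdft1, Lss and Srebf2, where 15.9% were called higher. The largest differences were those of Idi1, with 78.4 to 132 CPM in males and 33.4 to 39.3 CPM in females (−1.42 ± 0.15, adjusted p = 3.92e-05), and Hmgcs1, with 580.0 to 713 and 319 to 365 CPM (−0.86 ± 0.09, adjusted p = 2.77e-05). Pmvk was higher in all 4 females than in all 4 males (0.69 ± 0.11, adjusted p = 0.00089). Beside these, 7 of 10 fibroblast and matrix and 5 of 5 podocyte markers were called higher in females, and their part in the result was not tested. The fit of all 32 mice called 7 of the 26 genes in place of 12. The sex-genotype interaction in the 16 vehicle-treated mice, for which a call also needed a 2-fold difference, was called for none of the 26 genes, where 0.285% of 16152 genes were. At an unadjusted p under 0.05 it was 6 of 26, where 12% of all genes were, DESeq2 and limma-voom also called 0, and Idi1 had the largest value (female minus male log2 difference 0.58 ± 0.22, adjusted p = 0.277).

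Genes around the pathway, taken from lists by function, were counted in the same comparisons. Of 15 fatty acid synthesis genes, the arm that SREBP1 controls, 6 rose with NR in male controls and 4 in female controls, none fell, and in Alport mice 1 rose in females and 0 were called in males. Srebf1 rose in both (log2 fold changes 0.69 and 0.48, adjusted p = 0.0202 and 0.035), as did Fads1, the delta-5 desaturase (1.15 and 0.67, adjusted p = 0.00302 and 0.00221) and Scd1, the stearoyl-CoA desaturase (1.39 and 1.08, adjusted p = 0.0404 and 0.0265). Fasn, fatty acid synthase, was not called (0.46 and 0.48). In vehicle-treated Alport mice this list had 5 genes higher and 3 lower in males, and 2 higher and 4 lower in females.

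Of 5 other sterol-regulated genes, 3 were lower and 1 higher in vehicle-treated Alport males, and 3 lower and 0 higher in females, with medians of −0.64 and −0.59. Tmem97, a sterol-responsive membrane protein, rose with NR in controls of both sexes and in female Alport mice (0.87, 0.45 and 0.61). Aacs, acetoacetyl-CoA synthetase, fell in male controls on NR (−1.06, adjusted p = 0.0405). Of 12 genes that use isoprenoids, 8 fell in males and 9 in females with Alport disease on vehicle, none rose with NR in any group, and 2 fell in male controls on NR. Of 8 genes of SREBP processing and degradation, 4 fell in Alport males and 3 in Alport females, and none was called with NR. Of 11 genes of sterol efflux and storage, the LXR side, 9 were tested, and in vehicle-treated Alport mice 4 were higher and 2 lower in males, and 4 higher and 3 lower in females, with medians of −0.05 and 0.02. The efflux pumps Abca1 (1.52 and 1.45) and Abcg1 (2.03 and 1.67) were higher, and the sterol 27-hydroxylase Cyp27a1 (−0.25 and −0.45) and the cholesteryl ester hydrolase Nceh1 (−0.65 and −0.70) lower. With NR neither Abca1 nor Abcg1 was called in any group. Lpcat3, which inserts polyunsaturated chains into phospholipids, rose with NR in controls of both sexes and in female Alport mice (0.77, 0.65 and 0.86).

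Outside all lists, the genes whose deviations from their group means were most like the mean of the 26 genes were Nampt (Pearson r = 0.85 over 32 mice), Slc19a2 (0.84) and Fth1 (0.84). Nampt is the rate-limiting enzyme of NAD+ salvage, Slc19a2 a thiamine transporter and Fth1 the ferritin heavy chain. Without the NR-treated Alport mice, r over 24 mice was 0.49, 0.26 and 0.54. Nampt read 116 to 254 CPM in NR-treated male and 122 to 235 CPM in NR-treated female Alport mice, and 244 to 257 CPM and 230 to 242 CPM in vehicle-treated controls. It fell in vehicle-treated Alport mice of both sexes (log2 fold changes −0.87 and −0.90, adjusted p = 2.74e-06 and 0.000251) and was not called with NR in any group (0.54 and 0.46 in Alport mice, 0.18 and −0.09 in controls).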

How the data were processed

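RNA of kidney cortex from 32 mice was sequenced as 1 poly(A) library per mouse, and mice were grouped by their labels. The authors deposited raw counts per gene, made with BioJupies, and the submitters' processing notes name build mm10. The aligner, annotation and strand setting are not given in the sources used here, so that reads of overlapping or antisense genes cannot be told apart. A second deposited table of log2 CPM values was not used.

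Total counts were 16621944 to 27778797 per mouse. Within groups, no 2 libraries agreed within sampling noise. Genes with low counts were removed with filterByExpr (minimum count 10), TMM factors were computed, and edgeR 4.0.16 (R 4.3.3) fitted each comparison on its 8 mice, or 16 for an interaction, by its quasi-likelihood F test with Benjamini-Hochberg adjustment over all genes tested (threshold 0.05). The SE was taken as the absolute log2 fold change divided by the square root of F. CPM used TMM factors over all 32 mice, and log2 CPM a prior count of 2. Alternatives were DESeq2 1.42.0, limma-voom 3.58.1, no low-count filter, 1 fit of all 32 mice, a replicate block and leaving out each mouse. The code was tested on simulated data.

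The 26 genes and all gene lists were chosen with earlier results of these data known. Genes given per mouse were set by role, together with those whose direction went against their role, and the genes outside the lists by their correlation with the mean. Some genes are not reported here. P-values weigh a difference between groups against the spread between mice of a group, and the labels do not tie mice to litters.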

Additional observations from a re-analysis of the deposited data

Results flagged for a closer look

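A gap test on log2 CPM (Dixon, critical value for 4 values) was run on 104 sets of 4 values. Each set was a gene, or the mean of the 26 genes, in 1 of the 8 groups. It set 9 single values apart from the other 3 mice of their group. Chance alone sets apart about 1 in 20 sets, but these sets reuse the same 32 mice and are not independent. In NR-treated male Alport mice, Fdps read 7.072 in mouse 3, against 4.845 to 5.172 in the others. The other values lay closer to their groups. In vehicle-treated male Alport mice, Fdps read 3.833 in mouse 3 (others 3.905 to 3.918), Lss 4.506 in mouse 2 (4.561 to 4.568) and Srebf2 6.531 in mouse 4 (6.487 to 6.492). Mylip read 5.861 in NR-treated male control 2 (6.084 to 6.115). NR-treated female control 2 was low for both Sqle, 5.932 (6.344 to 6.367), and Cyp51, 7.874 (8.084 to 8.121). In vehicle-treated female Alport mice, the mean of the 26 genes was 5.095 in mouse 2 (4.852 to 4.887), and Dhcr7 read 3.918 in mouse 4 (3.749 to 3.772).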

How the results depend on the processing

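Over 3146 values of single genes under the alternatives, 2887 kept their side of the threshold, 162 fell below it and 97 passed it. No called value reversed, and 56 values that were not called changed sign. In 1 fit of all 32 mice, the median log2 fold change of Alport against control males was −0.45, and the genes called were 8 for NR in Alport males, 13 for NR in Alport females, 1 for NR in control females, 12 for NR-treated Alport against vehicle-treated control males and 7 for female against male controls. DESeq2 called 3 and 17 for NR in Alport males and females, 6 for NR-treated Alport against vehicle-treated control males and 1 for the NR-sex interaction in controls. For NR in Alport females, limma-voom called 1 and the fit with no low-count filter 5. The cause of these differences was not tested. Counts over all genes tested are given above for only some of the alternatives, also for those that leave out a mouse.

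With 1 mouse left out, calls ran from 0 to 9 for NR in Alport males, 0 to 7 in Alport females, 6 to 13 in control males, 0 to 7 and 5 to 9 for NR-treated Alport against vehicle-treated control males and females, 0 to 1 for the NR-genotype interaction in females and 0 to 3 for the NR-sex interaction in controls, where the 3 came without NR-treated male control 4. The median of the sex-genotype interaction ran from −0.12 to 0.071 and changed sign without vehicle-treated male Alport mouse 4. The medians of the NR-genotype interaction in males (−0.018 to 0.36, negative without NR-treated Alport mouse 3) and of the NR-sex interactions in Alport mice (−0.12 to 0.17) and controls (−0.062 to 0.072) also changed sign. Leaving out NR-treated male controls 1 and 3, an alternative chosen after seeing the data, gave a median of 0.59 and 9 calls, and turned the median of the NR-sex interaction in controls to −0.13.

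With the replicate block, 1 gene was called for NR in Alport females and 5 for NR-treated Alport against vehicle-treated control females, and 11 and 13 for NR in control males and females. The numbers did not pair the mice: of 24 pairs, correlations of deviations ran from −0.17 to 0.26, 5 were over 0.1, and in 0 of 6 comparisons did every mouse correlate best with its own number.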
